A study of Homo sapiens with 8 samples.

Results

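The genes described here are 10 feedback inhibitors of MAP kinase signalling, 8 dual-specificity phosphatases (DUSP1, DUSP2, DUSP4, DUSP5, DUSP6, DUSP8, DUSP10 and DUSP16) and 2 Sproutys (SPRY2 and SPRY4). They were picked by symbol from the 20323 genes of the deposited table, and each symbol matched 1 gene. Messenger RNA was measured in H2452, an established human line from a biphasic pleural mesothelioma, labelled wild type. There were 4 libraries from cells kept for 48 h in DPT (deoxypodophyllotoxin, 20 nM), a tubulin-binding compound of plants, and 4 from cells kept for the same time in its solvent, DMSO. The series design calls the 4 of each group biological replicates, all from the 1 cell line.

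MAP kinases carry signals from growth factor receptors and from stress to the nucleus, along the ERK, JNK and p38 branches. Each branch switches on genes that turn it off again. Dual-specificity phosphatases remove the activating phosphates from the kinase itself, and Sproutys act further up, between receptor tyrosine kinases and the activation of RAS and RAF. The phosphatases fall into a nuclear, rapidly induced class (DUSP1, DUSP2, DUSP4 and DUSP5), a cytoplasmic class selective for ERK (DUSP6) and a class that prefers JNK and p38 (DUSP8, DUSP10 and DUSP16). DUSP5 belongs to the nuclear class by its location and is selective for ERK by its substrate. DUSP6, SPRY2 and SPRY4 messages are widely used as read-outs of ERK activity.

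RefSeq promoter windows (GRCh38.p14), here the 250 bases before each start annotated by RefSeq, were found for 8 of the 10 genes, in 11 windows. DUSP4 and DUSP5 had no entry. Motif distances are counted from these RefSeq starts. The following are shown because 2 of these genes carry the cyclic AMP response element (CRE, letters TGACGTCA) with different responses to DPT, and because DUSP6 is the member selective for ERK in the cytoplasm. Capitals mark the CRE, the E-box CACGTG and the TATA box TATAAA.
DUSP1, chr5:172771196-172771445, minus strand: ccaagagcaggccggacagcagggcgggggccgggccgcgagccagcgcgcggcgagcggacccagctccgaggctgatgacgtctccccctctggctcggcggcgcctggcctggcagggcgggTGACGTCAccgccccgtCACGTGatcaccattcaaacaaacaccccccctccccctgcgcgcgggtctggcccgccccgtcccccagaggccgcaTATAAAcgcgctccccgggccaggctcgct
DUSP8, chr11:1572272-1572521, minus strand: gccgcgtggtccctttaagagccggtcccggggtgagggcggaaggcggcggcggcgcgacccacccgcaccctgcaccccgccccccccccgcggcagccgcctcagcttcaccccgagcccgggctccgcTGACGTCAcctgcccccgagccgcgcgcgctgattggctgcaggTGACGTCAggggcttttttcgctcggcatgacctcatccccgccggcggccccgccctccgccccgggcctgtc
DUSP6, chr12:89352502-89352751, minus strand: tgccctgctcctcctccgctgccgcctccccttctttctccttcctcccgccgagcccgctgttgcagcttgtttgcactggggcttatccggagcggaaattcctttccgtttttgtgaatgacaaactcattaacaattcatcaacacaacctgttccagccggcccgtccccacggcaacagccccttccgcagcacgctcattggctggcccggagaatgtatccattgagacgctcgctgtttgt

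A CRE stood in 2 of the 11 windows, those of DUSP1 and DUSP8, against 1.65% of all 35116 promoter windows of the same length. The DUSP1 CRE began 125 bases before the start site and the DUSP8 window held 2, beginning 118 and 74 bases before it. DUSP1 rose with DPT and DUSP8 did not pass the test, as given below. Whether the CRE takes part in the level of either message was not tested. On either strand, the E-box was in the DUSP1 and DUSP2 windows (6.34% of all), the TATA box in the DUSP1 window (10.7%) and the ETS core CCGGAA in 1 SPRY2 window (14.5%). None of the 11 windows matched the AP-1 site TGANTCA (6.57% of all), the CArG box bound by SRF (1.16%) or the NF-kB site (9.96%), which says only that these letters are not in these windows. The motifs found did not overlap each other.

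On GRCh38 the nuclear class comprised DUSP1 (ENSG00000120129) on chromosome 5 from 172768090 to 172771195, DUSP2 (ENSG00000158050) on chromosome 2 from 96143166 to 96145440, DUSP4 (ENSG00000120875) on chromosome 8 from 29333064 to 29350668, and DUSP5 (ENSG00000138166) on chromosome 10 from 110497838 to 110511544. The cytoplasmic ERK phosphatase was DUSP6 (ENSG00000139318) on chromosome 12 from 89347232 to 89353271. The JNK and p38 class comprised DUSP8 (ENSG00000184545) on chromosome 11 from 1554044 to 1571920, DUSP10 (ENSG00000143507) on chromosome 1 from 221701424 to 221742176, and DUSP16 (ENSG00000111266) on chromosome 12 from 12474210 to 12562383. The Sproutys were SPRY2 (ENSG00000136158) on chromosome 13 from 80335976 to 80340951 and SPRY4 (ENSG00000187678) on chromosome 5 from 142310427 to 142326455. DUSP5 lies on the plus strand and the other 9 on the minus strand. These spans come from another annotation than the promoter windows, and the starts of the 2 do not always match. The DUSP6 and SPRY4 windows lie inside the spans given here, as do some windows of DUSP10 and SPRY2. A gap separates the DUSP8 window, the DUSP16 window and the outermost SPRY2 window from the ends of their spans, at 1571920, 12562383 and 80340951.

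Library totals ran from 16087550 to 16524401 expected counts in DPT and from 14964432 to 17205391 in DMSO. DPT replicate 2 and DMSO replicate 3 stood apart from the other 6 libraries, with scores of 29.3 and 40.8 on the first principal component (36.8% of the variance) against -25.6 to -1.02. Results are therefore given from all 8 libraries, with a term for this pair of libraries, and from the other 6. The pair was chosen from these same data. Calls and adjusted p values from the fit with the term and from the other 6 libraries depend on that choice. Of 10 mesothelial markers 9 were expressed highly enough to be tested, and HAS1 was near 0 (a mean of 0.75 counts). Their summed level was 1982 to 2950 CPM (counts scaled by library size and composition) in DPT libraries and 2972 to 4121 CPM in DMSO libraries. KRT18 and UPK3B were the 2 called lower with all 8 libraries, and 0 were called higher (over all genes 5.29% and 5.68%). With the term for the pair 6 of the 9 were called lower and 2 higher (over all genes 17% and 16.9%). Those higher were CALB2 (log2 fold change 0.61, adjusted p = 0.00243, edgeR) and BNC1 (0.19, adjusted p = 0.00528, edgeR). Among fibroblast markers 4 of the 7 in the table were tested and 2 were called lower, COL1A2 and COL3A1, DCN and LUM were at 0, and the list summed to 152 to 246 CPM in DPT and 381 to 468 CPM in DMSO. Leukocyte markers summed to 94.8 to 146 CPM in DPT and 91.9 to 131 CPM in DMSO, nearly all of it CD68 and CD14, with MS4A1 and TYROBP at 0. Endothelial markers summed to 8.21 to 16.6 CPM in DPT and 6.19 to 10.1 CPM in DMSO, and TIE1 was called higher. The part of these differences in the results below was not tested, and in bulk RNA a change in the mix of cells and a change per cell cannot be told apart.

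DPT was compared with DMSO to ask which messages a tubulin binder changes. All 10 feedback genes passed the filter on low counts, and all 10 had a fold change above 1. DUSP1, DUSP4, DUSP10, SPRY2 and SPRY4 rose, with fitted folds of 1.84 to 2.57, and the other 5 were not called with all 8 libraries (edgeR's quasi-likelihood test, adjusted p under 0.05). No member was called lower by edgeR, DESeq2 or limma, and none had an unadjusted p under 0.05 in that direction. The 5 of 10 called higher compare with 5.68% of the 12648 genes tested, or 718 genes, and 669 genes (5.29%) were called lower. Scaled by library totals alone the split over all genes was 969 higher and 523 lower, and with limma on log2 FPKM it was 738 and 336, with 5 members higher in either. Without DPT replicate 4 the members called higher numbered 3, and over all genes 332 of 12750 were called higher. DESeq2 called 7.07% of all genes higher and 6.97% lower, and limma 5.83% and 2.66%. When the fit had a term for the pair of libraries 8 of the 10 rose (over all genes 16.9% rose and 17% fell), and in the other 6 libraries 9 of 10 (17% and 17.1%). The members' median log2 fold change was 0.88 against -0.0018 for all genes tested.

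**Figure D1:**
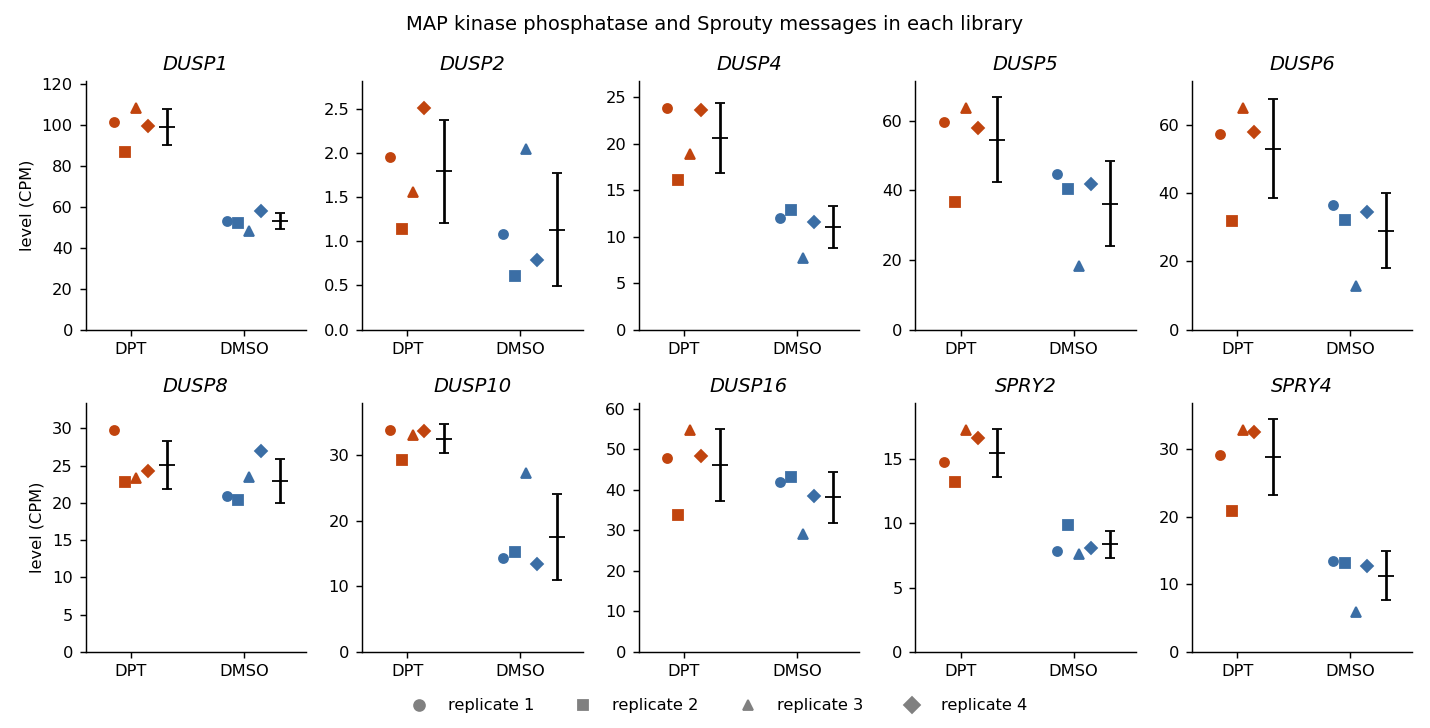
Level of each message in CPM (vertical axis, from 0) in every DPT library (red, left) and DMSO library (blue, right), with marker shape giving the replicate and the black bar the mean ± SD of 4 libraries. The groups are apart for DUSP1, DUSP4, DUSP10, SPRY2 and SPRY4, while DPT replicate 2 (square) and DMSO replicate 3 (triangle) lie low for DUSP5, DUSP6 and SPRY4 and DMSO replicate 3 lies high for DUSP10.

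Of the nuclear phosphatases DUSP1 and DUSP4 rose, and DUSP5 and DUSP2 were not called with all 8 libraries. DUSP1, which acts on all 3 branches and is induced by stress as well as by growth factors, measured 102, 87.1, 109 and 99.5 CPM in DPT replicates 1 to 4, against 53.0, 52.3, 48.5 and 58.2 CPM in DMSO replicates 1 to 4. The lowest DPT library was far above the highest DMSO library, and the pair that stood apart was only slightly low in either group. The log2 fold change was 0.91 (SE 0.0844, adjusted p = 0.000559, edgeR), 26th of all tested genes when ordered by p. It was 0.90 with the term for the pair and 0.92 in the other 6 libraries, and DUSP1 was called under all 16 alternatives tried.

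DUSP4, a nuclear MAP kinase phosphatase whose own message is a target of ERK signalling, measured 23.9, 16.1, 18.9 and 23.6 CPM in DPT replicates 1 to 4, against 12.0, 12.9, 7.71 and 11.5 CPM in DMSO replicates 1 to 4. The groups did not overlap, although the lowest DPT value was close to the highest DMSO value. Its log2 fold change of 0.90 (SE 0.181, adjusted p = 0.0139, edgeR) was almost that of DUSP1. The call was lost without DPT replicate 4 (adjusted p = 0.0506, edgeR). Non-overlap with DPT higher was seen in 9.5% of all tested genes and in 5 of the 10 members.

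DUSP5, the nuclear phosphatase selective for ERK, measured 59.7, 36.6, 63.7 and 58.0 CPM in DPT replicates 1 to 4, against 44.6, 40.3, 18.2 and 41.8 CPM in DMSO replicates 1 to 4. The groups overlapped because DPT replicate 2 lay below 3 of the DMSO libraries, and DMSO replicate 3 was lower still. With all 8 libraries the log2 fold change of 0.59 (SE 0.267) was not called (adjusted p = 0.192, edgeR). With the term for the pair it was 0.62 (SE 0.0786, adjusted p = 1.53e-05), and in the other 6 libraries, where the groups did not overlap (as in 22.8% of all genes with DPT higher), 0.52 (adjusted p = 1.08e-05). Without DMSO replicate 3 alone it was 0.36 and not called (adjusted p = 0.185, edgeR).

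DUSP2, a nuclear phosphatase best known from activated lymphocytes, was the lowest member, with 32, 19, 26 and 41 expected counts in DPT replicates 1 to 4, against 16, 9, 35 and 12 in DMSO replicates 1 to 4. DMSO replicate 3 was the highest of its group and exceeded all but 1 of the DPT libraries. The log2 fold change of 0.64 (SE 0.402, adjusted p = 0.352, edgeR) was not called. It was 1.10 without DMSO replicate 3, still not called (adjusted p = 0.0798, edgeR), and 1.27 in the other 6 libraries, where it was called (adjusted p = 0.0111, edgeR).

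DUSP6, the cytoplasmic phosphatase selective for ERK, measured 57.5, 32, 65.1 and 58.0 CPM in DPT replicates 1 to 4, against 36.6, 32.1, 12.8 and 34.5 CPM in DMSO replicates 1 to 4. DPT replicate 2 lay just below 3 of the DMSO libraries, and DMSO replicate 3 was below every other library. The log2 fold change was 0.87, nearly as large as that of DUSP1, but its SE of 0.313 was several times larger and it was not called with all 8 libraries (adjusted p = 0.107, edgeR). Without DPT replicate 2 it was 1.06 (adjusted p = 0.029), with the pair term 0.91 (SE 0.0847, adjusted p = 6.91e-07), and in the other 6 libraries 0.80 (adjusted p = 2.22e-07). Without any 1 of the other 7 libraries it was not called (adjusted p = 0.0796 to 0.243, edgeR), and without DMSO replicate 3 its value was 0.62. Exons of an antisense gene, AC024909.2, overlap those of DUSP6, and with no statement on strand in counting, reads of the 2 cannot be told apart.

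The levels of DUSP1 and of the ERK-selective phosphatases were set against each other per length. The ratio of DUSP1 to DUSP6 in FPKM (a level per gene length and library size) was 1.96, 2.96, 1.85 and 2.12 in DPT replicates 1 to 4 and 1.59, 1.60, 3.86 and 1.85 in DMSO replicates 1 to 4. The groups overlapped, and the highest ratio of each group was in the pair of libraries that stood apart. The ratio of DUSP1 to DUSP5 was 2.10, 2.93, 2.10 and 2.11 in DPT replicates 1 to 4 and 1.46, 1.60, 3.29 and 1.71 in DMSO replicates 1 to 4. With all 8 libraries these groups overlapped as well, through DMSO replicate 3, whereas without the pair every DPT library had a higher DUSP1 to DUSP5 ratio than every DMSO library. The 2 ERK-selective phosphatases, nuclear DUSP5 and cytoplasmic DUSP6, kept nearly equal levels, with a ratio of DUSP5 to DUSP6 of 0.883 to 1.01 in DPT and 0.999 to 1.18 in DMSO. These ratios are given as a description and were not tested.

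**Figure D2:**
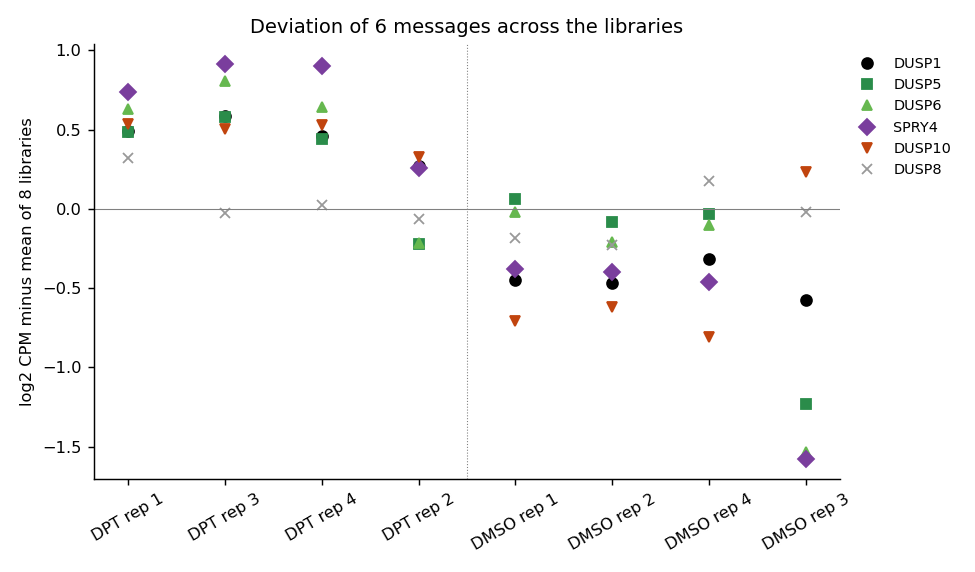
Log2 CPM of 6 messages minus each message's mean over the 8 libraries (vertical axis), with the 4 DPT libraries on the left and the 4 DMSO libraries on the right, and in each group the library that stood apart placed last. DUSP5, DUSP6 and SPRY4 are lowest of all in DMSO replicate 3 and lower in DPT replicate 2 than in the other DPT libraries, DUSP10 is high in DMSO replicate 3, and DUSP1 differs less among libraries of a group.

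The phosphatases of JNK and p38 were the least alike in their response. DUSP10 measured 33.8, 29.2, 33.1 and 33.7 CPM in DPT replicates 1 to 4, against 14.3, 15.2, 27.3 and 13.3 CPM in DMSO replicates 1 to 4. The groups did not overlap, but DMSO replicate 3 came near the lowest DPT library, so that the difference within the pair was 0.09 on the log2 scale and that among the other 6 libraries 1.23. With all 8 libraries the log2 fold change was 0.88 (SE 0.208, adjusted p = 0.0263, edgeR), and with the term for the pair 0.92 (adjusted p = 0.000148). The call was lost without any 1 of DPT replicates 1, 3 and 4 and DMSO replicates 1, 2 and 4 (adjusted p = 0.0671 to 0.0837, edgeR).

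DUSP16, which favours JNK, measured 47.8, 33.7, 54.8 and 48.3 CPM in DPT replicates 1 to 4, against 42.0, 43.1, 29.1 and 38.5 CPM in DMSO replicates 1 to 4. The groups overlapped through DPT replicate 2. The log2 fold change was 0.28 (SE 0.162, adjusted p = 0.322, edgeR) with all 8 libraries and 0.27 with the term for the pair (SE 0.0662, adjusted p = 0.00474), a small rise beside that of DUSP10. Without DMSO replicate 3 alone it was 0.16 and not called (adjusted p = 0.504, edgeR).

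DUSP8 measured 29.8, 22.8, 23.4 and 24.2 CPM in DPT replicates 1 to 4, against 20.9, 20.3, 23.5 and 26.9 CPM in DMSO replicates 1 to 4. The values were mixed, with DMSO replicate 4 above 3 of the DPT libraries. Its log2 fold change of 0.13 (SE 0.119, adjusted p = 0.548, edgeR) passed under none of the 16 alternatives, with adjusted p values of 0.244 to 0.894.

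Both Sproutys rose. SPRY4 had the largest log2 fold change of the 10 genes and measured 29.1, 20.9, 32.9 and 32.5 CPM in DPT replicates 1 to 4, against 13.4, 13.2, 5.84 and 12.7 CPM in DMSO replicates 1 to 4. No library overlapped with the other group, with DPT replicate 2 and DMSO replicate 3 each lowest of its own. Its log2 fold change was 1.36 (SE 0.249, adjusted p = 0.00975, edgeR), 1.38 with the pair term and 1.27 in the other 6 libraries.

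SPRY2 measured 14.7, 13.2, 17.3 and 16.6 CPM in DPT replicates 1 to 4, against 7.86, 9.90, 7.59 and 8.11 CPM in DMSO replicates 1 to 4. The groups were well apart, and DPT replicate 2 and DMSO replicate 3 were each the lowest of their group by a small margin. The log2 fold change was 0.89 (SE 0.129, adjusted p = 0.00372, edgeR), and like DUSP1 it was called under all 16 alternatives. Per length, SPRY4 reached 0.823 to 0.946 of the SPRY2 level in DPT and 0.364 to 0.796 of it in DMSO.

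**Figure D3:**
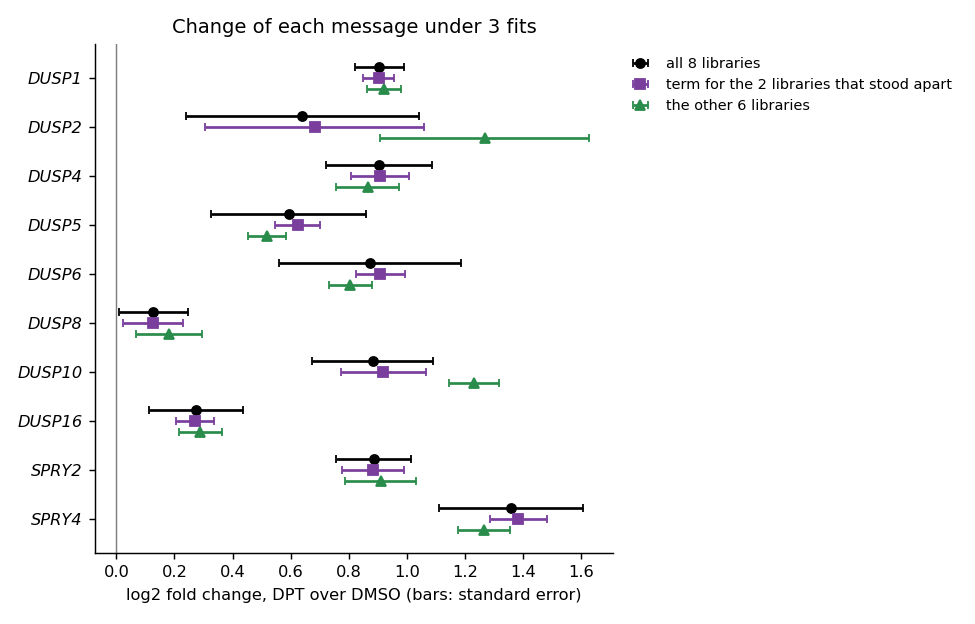
Log2 fold change of DPT over DMSO (horizontal axis, bars give the standard error) for each message from all 8 libraries (circles), with a term for the 2 libraries that stood apart (squares) and from the other 6 libraries (triangles). The values of DUSP5 and DUSP6 move little between fits while their bars shrink, and those of DUSP2 and DUSP10 are larger in the 6 libraries.

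The 2 libraries that stood apart did so unevenly among these genes, which is given as values with no test. Relative to the mean of the other 3 libraries of its group on the log2 scale, DMSO replicate 3 was at -1.41 for DUSP6, -1.21 for DUSP5, -1.15 for SPRY4, -0.64 for DUSP4 and -0.50 for DUSP16. For DUSP1 and SPRY2 it was at -0.17 each and for DUSP8 at 0.06. For DUSP10 it was at 0.93, and for DUSP2 at 1.22. DPT replicate 2, set against the other DPT libraries in the same way, was negative for all 10, between -0.91 for DUSP6 and -0.17 for DUSP8. DPT replicate 2 minus DMSO replicate 3, on the same scale, was 1.81 for SPRY4, 1.31 for DUSP6, 1.05 for DUSP4, 1.00 for DUSP5, 0.84 for DUSP1 and 0.79 for SPRY2. For DUSP16 and DUSP10 the difference was 0.21 and 0.09, and for DUSP8 and DUSP2 it was -0.04 and -0.78.

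The order of the levels was read per length, in FPKM. In DPT, DUSP1 led with 49.99 ± 4.67 FPKM, above DUSP6 (23.6 ± 6.35), DUSP5 (22.3 ± 5.05), DUSP10 (15.5 ± 1.69) and DUSP16 (12.0 ± 3.79). SPRY2 (6.79 ± 0.831), SPRY4 (6.19 ± 1.08), DUSP8 (5.37 ± 0.783), DUSP4 (3.87 ± 0.644) and DUSP2 (1.08 ± 0.353) followed (SD, n = 4). In DMSO, DUSP1 led as well with 25.9 ± 1.75 FPKM, followed by DUSP5 (14.4 ± 4.77), DUSP6 (13.4 ± 4.84), DUSP16 (8.96 ± 1.57), DUSP10 (7.84 ± 3.32) and DUSP8 (4.90 ± 0.542). SPRY2 (3.59 ± 0.459), SPRY4 (2.31 ± 0.764), DUSP4 (1.96 ± 0.398) and DUSP2 (0.664 ± 0.38) came last. DUSP1 was above every other member in every library. In DPT the ranges of neighbours in this order were separate only between DUSP1 and DUSP6, DUSP8 and DUSP4, and DUSP4 and DUSP2. In DMSO the neighbours that overlapped were DUSP5 and DUSP6, DUSP6 and DUSP16, DUSP16 and DUSP10, and SPRY4 and DUSP4, and the others were separate. The 8 phosphatases summed to 134 ± 21.98 FPKM in DPT and 78.1 ± 8.79 FPKM in DMSO (SD, n = 4), and DUSP1 made up 37.8% ± 3.36 of that sum in DPT and 33.4% ± 2.81 in DMSO. The DUSP1 shares of the groups overlapped, at 35.4% to 42.8% in DPT and 30.9% to 36.9% in DMSO.

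Other inhibitors of the same loop were split. Of 7 listed genes 6 were tested, 3 rose and none was called lower (edgeR, 1 with an unadjusted p under 0.05; DESeq2 and limma called none lower). DUSP7, the other broadly expressed cytoplasmic ERK phosphatase, reached 22.9 ± 1.82 CPM in DPT and 14.6 ± 1.32 CPM in DMSO (SD, n = 4, log2 fold change 0.65, adjusted p = 0.00398, edgeR). SPRED3, of the Sprouty-related family that restrains RAS, reached 12.0 ± 1.13 CPM in DPT and 7.19 ± 1.29 CPM in DMSO (0.74, adjusted p = 0.0131, edgeR). SPRED1 rose less (0.37, adjusted p = 0.0494, edgeR), and its call was lost without any 1 library other than DPT replicate 2 (adjusted p = 0.0626 to 0.135, edgeR). SPRY1 and SPRY3 had log2 fold changes of -0.76 and -0.85 at a mean of 15.9 and 16.75 counts and were not called with all 8 libraries. The term for the pair gave 3 of the 6 called higher and 0 lower, while the remaining 6 libraries gave 3 higher and 1 lower, SPRY3 (-1.18, adjusted p = 0.0299, edgeR). Over all genes the shares higher and lower were 5.68% and 5.29% with all 8 libraries. They were 16.9% and 17% with the term, and 17% and 17.1% in the remaining 6 libraries. DUSP9, with a mean of 2.38 counts, was not tested.

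The atypical phosphatases, small relatives that lack the MAP kinase-binding domain, had no call in either direction among 10 tested genes of 12 listed with all 8 libraries (edgeR). Before adjustment 3 had p under 0.05, all higher, and DESeq2 and limma each called 1 higher and none lower. The fit with the pair term called 2 higher and 0 lower (16.9% and 17% over all genes). That of 6 libraries called 2 higher and 1 lower, DUSP3 (-0.12, adjusted p = 0.0416, edgeR), against 17% and 17.1% over all genes. The median log2 fold change of the atypical phosphatases was -0.0044, against 0.88 for the 10 members and -0.0018 for all genes.

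Transcripts used as read-outs of ERK output rose in number. Of 12 tested genes outside the members 8 rose and none was called lower (edgeR, DESeq2 and limma, and none with an unadjusted p under 0.05), with a median log2 fold change of 0.72. FOSL1, an AP-1 subunit, reached 324 ± 34.6 CPM in DPT and 164 ± 20.6 CPM in DMSO (SD, n = 4, log2 fold change 0.98, adjusted p = 0.00121, edgeR). EGR1, an immediate-early transcription factor, reached 48.2 ± 7.46 CPM in DPT and 17.2 ± 6.58 CPM in DMSO (1.49, adjusted p = 0.0104, edgeR). In the fit with the pair term 10 rose (of all genes 16.9%), as did 10 in the other 6 libraries (of all genes 17%). The count depended on single libraries, as did that of all genes called higher, which was 718 with all 8 libraries. Read-outs called higher numbered 2 without DPT replicates 1, 3 or 4 or DMSO replicate 1 (459, 332, 332 and 340 of all genes). They numbered 3 without DMSO replicate 4 (342 of all genes) and 4 without DMSO replicate 2 (374). Without DMSO replicate 3 they numbered 8 (859 of all genes), and without DPT replicate 2 they numbered 10 (1183).

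The lists of the cascades themselves held genes called in either direction. Over all genes tested, 5.68% were called higher and 5.29% lower with all 8 libraries. The shares were 16.9% and 17% with the term for the pair, and 17% and 17.1% in the other 6 libraries. The counts in these short lists were not tested against those shares. In the RAS to ERK list 1 of 17 tested genes rose, MAP2K1, which encodes the ERK kinase MEK1, at 101 ± 4.13 CPM in DPT and 80.9 ± 4.78 CPM in DMSO (log2 fold change 0.32, adjusted p = 0.014, edgeR). The adaptor SHC1 (-0.38, adjusted p = 0.0109, edgeR) and the RAS activator SOS2 (-0.29, adjusted p = 0.0391, edgeR) fell. MAP2K1 was not called without DPT replicate 4 or DMSO replicates 1 or 2 (adjusted p = 0.0504 to 0.0525, edgeR), and SOS2 not without DPT replicates 1 or 3 or any 1 DMSO library (adjusted p = 0.0519 to 0.112, edgeR). The list's median log2 fold change was 0.0061, and 3 rose and 5 fell with the term for the pair, against 4 and 5 in the other 6 libraries.

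In the JNK list none of 14 tested genes rose with all 8 libraries (edgeR, DESeq2 and limma; 1 at an unadjusted p under 0.05) and MAP3K12, a kinase at the head of the JNK branch, fell (-0.74, adjusted p = 0.0331, edgeR), a call lost without any 1 of DPT replicates 1, 3 and 4 and DMSO replicates 1, 2 and 4 (adjusted p = 0.0573 to 0.0965, edgeR). Once the pair had its own term, 1 of the 14 was called higher, the JNK scaffold gene MAPK8IP1 (0.31, adjusted p = 0.025, edgeR), and 2 were called lower. Omitting the pair left 2 called higher, MAPK8IP1 and MAP3K5, a stress-activated kinase at the head of the JNK and p38 branches, and 2 called lower. In the p38 list 3 of 11 tested genes rose and 2 fell. MAPKAPK3, a kinase activated by p38, reached 22.9 ± 0.943 CPM in DPT and 14.2 ± 1.5 CPM in DMSO (0.69, adjusted p = 0.00278, edgeR), and MAP2K3, an activator of p38, reached 90.4 ± 3.38 CPM in DPT and 64.2 ± 4.15 CPM in DMSO (0.49, adjusted p = 0.00251, edgeR). The p38 isoforms MAPK12 (-0.43, adjusted p = 0.0457, edgeR) and MAPK11 (-0.36, adjusted p = 0.0489, edgeR) fell, calls that were lost when any 1 library other than DPT replicate 2 was omitted (adjusted p = 0.0591 to 0.138, edgeR). Both the pair term and the omission of the pair gave 4 of the 11 called higher and 2 lower. Beside the JNK and p38 counts, 5.68% of all genes were called higher and 5.29% lower with all 8 libraries. With the pair term these shares were 16.9% and 17%, and without the pair 17% and 17.1%.

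**Figure D4:**
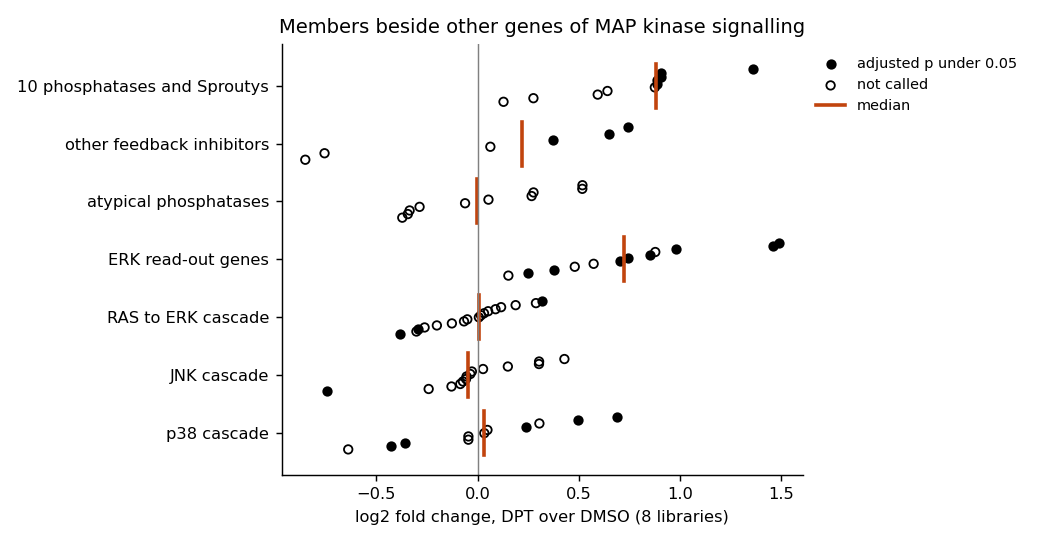
Log2 fold change of DPT over DMSO from all 8 libraries (horizontal axis) for each tested gene of 7 lists, with filled points for genes called at an adjusted p under 0.05, open points for the others and a bar at the list's median. The members' median is 0.88 and that of the ERK read-out genes 0.72, while the cascade lists and the atypical phosphatases lie around 0.

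Genes outside the list were ranked by likeness to 3 members, as the root mean square difference of log2 CPM over the 8 libraries after centring each gene, among 12093 genes. Closest to DUSP1 were AEN, a nuclease gene (0.0721), and PLAU, the urokinase gene (0.0811). Closest to DUSP6 were LIF, a cytokine of the IL-6 family (0.098), and GSDMC, a gasdermin (0.115), and closest to SPRY4 were MAFF, a small MAF transcription factor (0.136), and EGR1 (0.177). Among the members, DUSP1 was nearest to SPRY2 (0.128), DUSP6 to DUSP5 (0.169) and SPRY4 to DUSP6 (0.273). The 8 libraries share the treatment and the pair that stood apart, so these distances describe both.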

How the data were processed

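Polyadenylated RNA of 8 H2452 libraries was sequenced after Trizol extraction and NEBNext Ultra library construction, per the labels' protocols. The deposited table gave 2 values per gene and library. Expected counts, of which 10.8% were not whole, were estimated by the authors, and FPKM, scaled by gene length and library size, was computed by the authors, both per the file headers. The submitters' processing notes name fastp 0.18.0, HISAT2, StringTie 1.3.1, RSEM, DESeq2 and the build hg38, without roles or order. Gene positions are from an annotation of the same build.

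Expected counts were rounded. edgeR 4.0.16 in R 4.3.3 was run with filterByExpr (minimum count 10, minimum total 15), TMM scaling and the quasi-likelihood test on 12648 genes, with treatment as the only term, and was tested on simulated data. P-values were adjusted by Benjamini-Hochberg across the tested genes, and genes were called under 0.05. The SE is the log2 fold change divided by the root of the F statistic. CPM uses the TMM scaling. A level of 1 CPM was about 15 counts in the smallest library. Alternatives were DESeq2 1.42.0, limma 3.58.1 on log2(FPKM + 0.1), other scalings, no filter, single libraries left out, a term for or omission of DPT replicate 2 and DMSO replicate 3, and a replicate block. The p-values measure the spread between these libraries, since nothing beyond the design text describes how the cultures were separated. No library pair of a group agreed within counting noise (chi-square per gene 2.68 or more).

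The members and the gene lists were chosen with earlier results of these data known. All 10 members are named, as are up to 2 called genes per direction of each other list with the smallest adjusted p, and the 2 genes most like DUSP1, DUSP6 and SPRY4. SPRED1, SPRY1, SPRY3, DUSP9, DUSP3, MAPK8IP1, MAP3K5 and the marker genes were named after their values were seen.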

Additional observations from a re-analysis of the deposited data

Results flagged for a closer look

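In 4 of the 20 sets of 4 libraries (each member in each group) 1 library lay far from the other 3 by Dixon's test. Chance gives about 1 in 20 for a single set. The 20 sets share the same 8 libraries and are not independent, so their count cannot be compared with that rate. DMSO replicate 3 was far below the other DMSO libraries for DUSP5 (18.2 CPM) and SPRY4 (5.84 CPM) and far above them for DUSP10 (27.3 CPM). DPT replicate 2 was below the other DPT libraries for DUSP10 (29.2 CPM).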

How the results depend on the processing

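All 10 members kept a positive log2 fold change under every alternative. DESeq2, RLE scaling, library totals, no filter and limma on FPKM each called 5 members higher. The number was 8 with the term for the pair of libraries, 9 without the pair, 2 with the replicate block (DUSP1 and SPRY2), and 3 to 6 when 1 library was left out, with no member called lower under any of them. Over all genes, 2140 were higher and 2156 lower with the term, 2158 and 2169 without the pair, 171 and 174 with the replicate block, and 332 to 1183 higher and 311 to 1108 lower with 1 library left out. limma called 336 lower. The deviations of same-numbered libraries had r of 0.20, -0.31, -0.40 and 0.21 over genes for numbers 1 to 4. The 2 libraries that stood apart carry numbers 2 and 3, so these values do not settle whether numbers pair libraries, and the labels do not say that a number marks a shared culture. The term lowered the biological coefficient of variation to 6.3% from 14.9%. Outside the members, the calls of MAPK11 and MAPK12 were also lost with library totals, no filter and limma (adjusted p = 0.0501 to 0.117), those of SOS2 likewise (0.0529 to 0.316), that of MAP3K12 with limma (0.0682) and that of SPRED1 with RLE scaling or no filter (0.0502 and 0.059). With the replicate block the calls of SPRED3, EGR1, SHC1 and MAP2K1 were lost (adjusted p = 0.0621 to 0.0668, edgeR). Those of MAPK11, MAPK12, SOS2, MAP3K12 and SPRED1 were lost there as well (0.106 to 0.154). The calls of DUSP7, FOSL1, MAP2K3 and MAPKAPK3 were kept with the replicate block.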
